A study of Mus musculus with 6 samples.

Results

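Galectins, annexins and the S100 proteins that bind annexins were followed in sorted LT-HSCs, long-term blood stem cells, which sit in the bone marrow in small numbers and sustain all blood lineages. The 8 genes are the galectin genes Lgals1 and Lgals3, the annexin genes Anxa1 and Anxa2, and the S100 genes S100a4, S100a6, S100a10 and S100a11. They were picked by name from a table of 23235 genes, and all 8 were found and passed the filter on low values. The set was built around Lgals1 because Lgals1 was already known to be higher in Hmces knockout cells. The differences between genotypes in these 8 genes are therefore given as a description; whether a gene passed the test across all genes is stated beside the share of all genes that did, and supports nothing. The question is how far the difference of Lgals1 extends to its relatives.

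Hmces knockout and wild-type (WT) cells were compared, with 3 libraries each, although the design text speaks of duplicates. HMCES is a DNA repair protein that cross-links to sites where a base has been lost. Both genotypes were sampled from bone marrow of C57BL/6 mice aged 2 months, and each library came from 1500 cells sorted with fluorescent stem cell antibodies and amplified by the Smart-seq2 method. The labels give neither the nature of the Hmces allele, nor the gates, nor whether libraries came from separate mice, and the titles of both genotypes carry an unexplained tag of 13 bp. Levels are FPKM, the fragments of a transcript per kilobase of its length, scaled to the mapped fragments of the library, so levels of different genes can be set side by side.

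Galectins are lectins that bind beta-galactoside sugars on cell surfaces and in the matrix. Galectin-1, the product of Lgals1, is a small lectin that pairs with itself and cross-links glycoproteins, and galectin-3, the product of Lgals3, is abundant in macrophages and is also known as Mac-2. Annexins bind acidic membrane lipids when calcium rises. Many S100 proteins are small calcium sensors, and several of them dock on the amino-terminal tail of an annexin and join membranes or cytoskeleton to it. Mature myeloid cells express many genes of these 3 families, and so do stem and progenitor cells.

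The libraries held an estimated 9120000 to 14500000 fragments, a figure that rests on an assumed fragment length of 200 nt. At that depth the 8 genes were represented by an estimated 119 to 3912 fragments per library, so none of them lay near the detection limit. Hmces itself, listed under its older symbol 8430410A17Rik, stood at 5.37 ± 4.57 FPKM in knockout and 41.98 ± 3.03 FPKM in WT cells (SD, n = 3 each). It was read at 8.95, 0.222 and 6.95 FPKM in knockout replicates 1, 2 and 3, so only replicate 2 was near 0. WT libraries gave 39.5, 45.4 and 41.0 FPKM. In the limma fit described below, Hmces was not called (limma adjusted p = 0.289). Knockout replicate 2 stood apart on the leading principal component, which held 25.9% of the variance. It scored 67.0 there, where the other 5 scored -33.6 to 10.1. LT-HSC markers were present in both genotypes. The most abundant were Ly6a, which encodes the surface antigen Sca-1, at 311 ± 48.8 FPKM in knockout and 231 ± 21.7 FPKM in WT cells, and the transcription factor gene Meis1, at 144 ± 19.6 FPKM in knockout and 147 ± 0.540 FPKM in WT cells. Hoxb5 and Fgd5, which mark LT-HSCs narrowly, lay below a mean of 1 FPKM in both genotypes.

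The galectin genes showed the widest gap between genotypes among the 8. Lgals1 was read at 134, 110.4 and 112 FPKM in knockout libraries, against 54.0, 58.2 and 47.6 FPKM in WT libraries. Every knockout library lay above every WT library, and the ratio of means was 2.23. Lgals3 was much less abundant, at 19.9, 21.3 and 24.2 FPKM in knockout libraries, against 11.6, 13.6 and 7.22 FPKM in WT libraries. Its groups did not overlap either, and the ratio of means was 2.02, although the WT values spread more widely (coefficient of variation 30.2%) than those of Lgals1 (9.97%). On the log2(FPKM + 1) scale the differences were 1.14 (SE 0.14) for Lgals1 and 0.98 (SE 0.25) for Lgals3. The RefSeq table lists a pseudogene copy of Lgals1, so a share of its reads may be uncertain.

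The level of Lgals1 relative to Lgals3 was similar in both genotypes. The ratio of their FPKM values was 6.74, 5.17 and 4.63 in knockout libraries and 4.64, 4.27 and 6.60 in WT libraries, with overlapping ranges.

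Both annexin genes were higher in knockout cells, by less than the galectins. Anxa1, which encodes an annexin that acts on formyl peptide receptors and restrains neutrophil inflammation, was read at 278, 221 and 216 FPKM in knockout libraries, against 126, 139 and 164 FPKM in WT libraries. Anxa2, whose product carries plasminogen and its activator at the cell surface, was read at 149, 119.7 and 123 FPKM in knockout libraries, against 88.0, 89.6 and 86.2 FPKM in WT libraries. The groups did not overlap for either gene. The ratio of means was 1.67 for Anxa1 and 1.48 for Anxa2, and the log2 differences were 0.73 (SE 0.15) and 0.56 (SE 0.12). Anxa2 was the steadiest of the 8 among WT libraries, with a coefficient of variation of 1.94%, against 12.0% among knockout libraries.

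Among the S100 genes, S100a4, S100a6 and S100a11 had higher means in knockout cells and S100a10 a lower one. Only the groups of S100a6 did not overlap. The ratios of means nearest to 1 were those of S100a10 (0.917) and S100a11 (1.17). S100a6, which encodes calcyclin, was read at 68.0, 73.6 and 69.7 FPKM in knockout libraries, against 48.1, 59.1 and 34.7 FPKM in WT libraries, with no overlap and a ratio of means of 1.49. S100a4, whose product binds non-muscle myosin, was read at 71.6, 52.5 and 50.1 FPKM in knockout libraries, against 42.1, 30.1 and 51.8 FPKM in WT libraries. WT replicate 3 lay within the knockout range, and the ratio of means was 1.40.

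S100a11, which encodes a partner of annexin A1, was read at 446, 310.3 and 338 FPKM in knockout libraries, against 304, 335 and 299 FPKM in WT libraries. The higher knockout mean rested on replicate 1, and the other 2 knockout libraries lay within or next to the WT range. S100a10, which encodes the partner of annexin A2 and is unusual among S100 proteins in not needing calcium, was the 1 gene of the set with a lower mean in knockout cells. It was read at 361, 311 and 359 FPKM in knockout libraries, against 349, 410.5 and 365 FPKM in WT libraries, and the groups overlapped. The log2 differences were 0.60 (SE 0.20) for S100a6, 0.50 (SE 0.23) for S100a4, 0.21 (SE 0.15) for S100a11 and -0.12 (SE 0.11) for S100a10. The RefSeq table lists a pseudogene copy of S100a11, so its level is less certain.

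**Figure D1:**
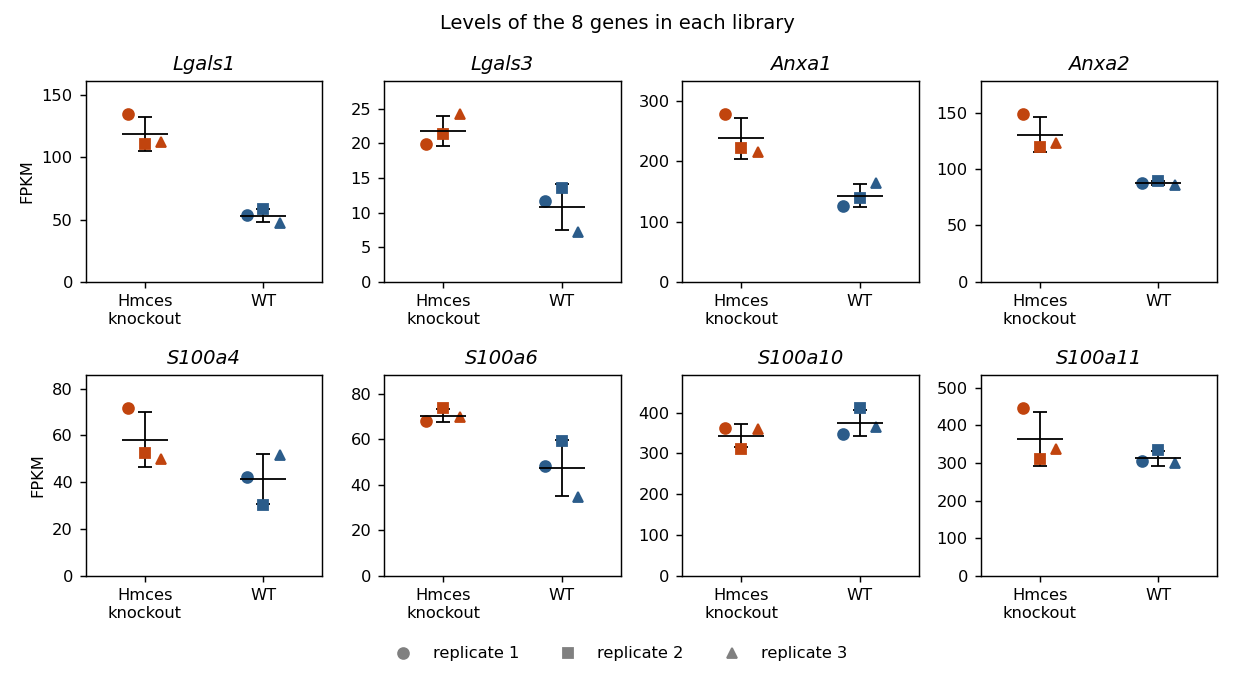
Level in FPKM (y axis, from 0, own scale per gene) of each of the 8 genes in the 3 Hmces knockout libraries (left, orange) and the 3 WT libraries (right, blue). Horizontal bars are means, error bars are SD and symbols mark the replicate number; the groups do not overlap for Lgals1, Lgals3, Anxa1, Anxa2 and S100a6, and they overlap for S100a4, S100a10 and S100a11.

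By count, 7 of the 8 genes had a positive log2 difference and the median was 0.58. Over all 11532 genes tested, 48.1% had a positive difference and the median was -0.01. The groups did not overlap and were higher in knockout libraries for 5 of the 8 genes, against 7.47% of all genes tested; 0 of the 8 lay wholly below WT, against 8.34% of all genes. In the limma fit across all genes, with p-values adjusted by the Benjamini-Hochberg method and a threshold of 0.05, Lgals1 was the 1 gene of the 8 called, and 0.104% of all genes were called higher and 0.00867% lower (0.113% in all). Of the other 7 genes, limma called 0, while 4 had an unadjusted p under 0.05 and were higher and 0 were lower, against 4.32% and 4.84% of all genes. Nothing is read from these shares, because the same contrast chose the set. The call of Lgals1 was lost without any 1 of the 6 libraries, while its log2 difference stayed between 1.05 and 1.21.

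The order of the levels was almost the same in both genotypes. In knockout cells it ran S100a11 (365 FPKM), S100a10 (344), Anxa1 (238), Anxa2 (131), Lgals1 (119), S100a6 (70.4), S100a4 (58.1) and Lgals3 (21.8). In WT cells S100a10 (375 FPKM) stood above S100a11 (313), followed by Anxa1 (143), Anxa2 (87.9), Lgals1 (53.3), S100a6 (47.3), S100a4 (41.4) and Lgals3 (10.8). S100a10 and S100a11 changed places between the genotypes, but in knockout cells S100a11 was the higher of the pair in 1 of 3 libraries, so the pair is not separated there. S100a6 and S100a4 were not separated in either genotype, with S100a6 higher in 2 of 3 libraries of each. Lgals1 stood above S100a6 in all 3 knockout libraries and in 2 of 3 WT libraries. Among all genes tested, S100a10 lay at the 97.2th percentile of mean level in WT cells and Lgals3 at the 44.8th, so the set spans abundant and middling transcripts.

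Annexin genes can also be set against the S100 genes of their partners within each library. The ratio of S100a10 to Anxa2 was 2.43, 2.59 and 2.91 in knockout libraries, against 3.96, 4.58 and 4.24 in WT libraries, with means of 2.65 ± 0.244 and 4.26 ± 0.311 in the same order (SD, n = 3 each). Every knockout ratio lay below every WT ratio. The ratio of S100a11 to Anxa1 was 1.61, 1.40 and 1.57 in knockout libraries, against 2.41, 2.42 and 1.82 in WT libraries, and these did not overlap either. A ratio of 2 genes in 1 library does not depend on how that library was scaled. These ratios use the contrast that chose the set, so no test is given, and none of the 4 genes was called on its own.

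**Figure D2:**
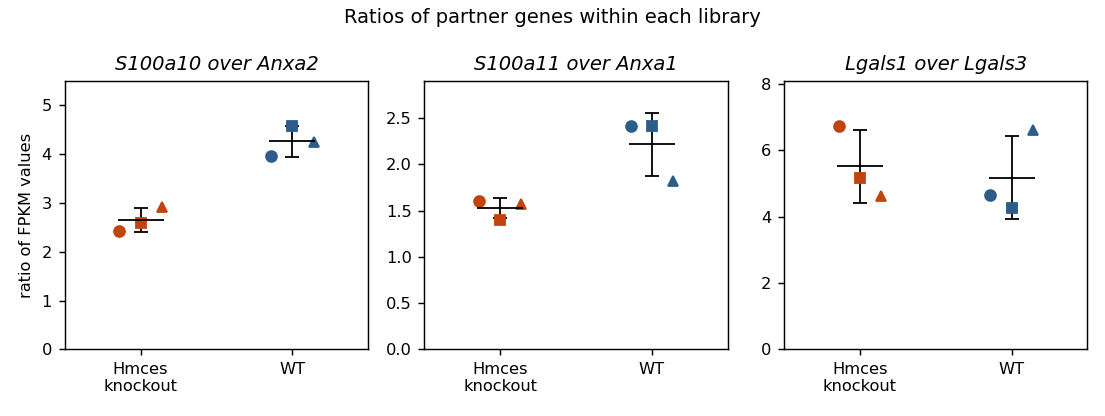
Ratio of FPKM values (y axis, from 0) of S100a10 to Anxa2, S100a11 to Anxa1 and Lgals1 to Lgals3 within each library, with knockout libraries on the left and WT libraries on the right; horizontal bars are means, error bars are SD and symbols mark replicates 1 to 3. The S100-to-annexin ratios separate the genotypes, at 2.65 against 4.26 for S100a10 to Anxa2, and the galectin ratio does not.

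Promoter sequence was available in the RefSeq table (build GRCm38.p6) for 6 of the 8 genes, all but Lgals1 and S100a10. The 150 bases before the transcription start are shown for 3 genes whose genotypes did not overlap (Lgals3, Anxa1 and Anxa2) and, for contrast, for S100a11, whose genotypes overlapped. Capitals mark a TATA box (TATAAA), a GC box (GGGCGG), or an AP-1 site (TGAGTCA), each searched on both strands; a GC box on the opposite strand reads CCGCCC.
Lgals3, chr14:47373710-47373859, plus strand: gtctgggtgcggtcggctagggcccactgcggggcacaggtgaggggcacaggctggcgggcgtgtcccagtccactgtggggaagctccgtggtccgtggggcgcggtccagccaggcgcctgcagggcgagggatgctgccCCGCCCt
Anxa1, chr19:20390672-20390821, minus strand: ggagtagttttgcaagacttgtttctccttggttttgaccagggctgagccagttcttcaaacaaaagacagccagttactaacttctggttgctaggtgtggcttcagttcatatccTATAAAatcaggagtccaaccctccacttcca
Anxa2, chr9:69453533-69453682, plus strand: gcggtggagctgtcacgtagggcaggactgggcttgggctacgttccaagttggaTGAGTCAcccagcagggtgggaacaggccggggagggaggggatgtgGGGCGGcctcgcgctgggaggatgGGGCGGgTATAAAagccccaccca
S100a11, chr3:93520346-93520495, plus strand: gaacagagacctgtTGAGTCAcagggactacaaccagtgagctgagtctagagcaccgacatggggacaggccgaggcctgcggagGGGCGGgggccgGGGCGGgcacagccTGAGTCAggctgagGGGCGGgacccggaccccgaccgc

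In the 250 bases before the start, the AP-1 letters were found in 2 of the 6 promoters, Anxa2 and S100a11, against 4.46% of 32851 promoters in the table. TATA box letters were found in 3 of the 6 (Anxa1, Anxa2 and S100a4), against 12.4% of all promoters, and GC box letters in 3 (Lgals3, Anxa2 and S100a11), against 32.7%. The core of the site of PU.1, a myeloid transcription factor (GAGGAA), was found in 2 (Anxa1 and S100a11), against 23.3%. No motif searched was shared by the promoters of Lgals3, Anxa1, Anxa2 and S100a6, the genes with sequence whose groups did not overlap. These matches describe letters in a window and say nothing of binding.

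None of the other galectins tested had groups that lay apart, as those of Lgals1 did. Of 8 other galectin genes in the table, 4 were tested and 0 were called by limma, 0 also at an unadjusted p under 0.05, with a median log2 difference of 0.07. Lgals9, which encodes a galectin that binds the receptor TIM-3 on immune cells, was the most abundant galectin gene, at 346 ± 18.9 FPKM in knockout and 351 ± 38.1 FPKM in WT cells (SD, n = 3 each). Lgals8 stood at 46.4 ± 8.30 and 41.4 ± 1.90 FPKM, and Lgals4 at 13.7 ± 4.23 and 8.32 ± 3.70 FPKM in the same order, with overlapping groups. The log2 difference of Lgals4 was 0.70 (SE 0.36), close in size to that of Anxa1 but with a wider error. Apart from 1110067D22Rik (now Lgalsl), the fourth tested, the others lay under the filter. Lgals2 was listed at 0 in every library.

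Among the other annexins, Anxa3 was the 1 called, and it exceeded every one of the 8 genes in size of change. Anxa3, an annexin gene of neutrophils, was read at 30.9, 23.3 and 26.5 FPKM in knockout libraries, against 5.24, 5.01 and 6.44 FPKM in WT libraries, a ratio of means of 4.83 and a log2 difference of 2.08 (SE 0.21, limma adjusted p = 0.0146). The call was lost without WT replicates 1 or 2 or any 1 knockout library, with adjusted p-values up to 0.233 (without knockout replicate 3), and was held without WT replicate 3 (0.0398). The median over the 7 other annexins tested was 0.05. Anxa5, the annexin used to stain dying cells, stood at 157 ± 17.3 FPKM in knockout and 144 ± 18.4 FPKM in WT cells, and Anxa4 and Anxa6 overlapped between genotypes as well. The higher levels in the annexin family were those of Anxa1, Anxa2 and Anxa3, and the remaining 6 tested annexins had log2 differences from -0.25 to 0.25.

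The other S100 genes tested numbered 5, of which limma called 0. At an unadjusted p under 0.05, 3 were higher in knockout libraries, against 4.32% of all genes. The groups of these 3 did not overlap, where 7.47% of all genes lay wholly above WT. S100a8 and S100a9, the subunits of calprotectin and a large part of the soluble protein of neutrophils, stood at 9853 ± 2397 and 5284 ± 1011 FPKM in knockout cells, against 4135 ± 1004 and 2394 ± 579 FPKM in WT cells (SD, n = 3 each; limma adjusted p = 0.170 for each). The third was S100a1, whose product regulates calcium handling in heart muscle, at 181 ± 11.4 FPKM in knockout and 142 ± 21.9 FPKM in WT cells (adjusted p = 0.506). S100a13 stood at 70.8 ± 27.8 and 72.9 ± 8.84 FPKM in the same order.

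Position in the S100 cluster can be set beside these values. By RefSeq order, S100a1, S100a13, S100a14, S100a16, S100a3, S100a2, S100a4, S100a5, S100a6, S100a7a, S100a8 and S100a9 form an unbroken run, with no other coding gene between them. S100a11 and S100a10 are direct neighbours that lie beyond S100a7l2 and a gap holding 54 other coding genes. Along the unbroken run the log2 differences were 0.36 (SE 0.14) for S100a1 and -0.10 (SE 0.25) for S100a13. They were 0.50 for S100a4, -0.32 (SE 0.96) for S100a5 and 0.60 for S100a6. The values were 1.25 (SE 0.22) for S100a8 and 1.15 (SE 0.20) for S100a9, with S100a7a listed at 0. S100a14, S100a16, S100a3 and S100a2 were not tested. S100a5 was too variable to place, with knockout values of 10.1, 2.34 and 0 FPKM and WT values of 6.31, 0.333 and 6.46 FPKM. The distant pair had the values nearest to 0 among the 4 S100 genes of the set. S100a13, which is outside the set and inside the unbroken run, lay near 0 as well. Close neighbours can share reads where strand is not used in counting, and strand use is not given in the sources used here.

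**Figure D3:**
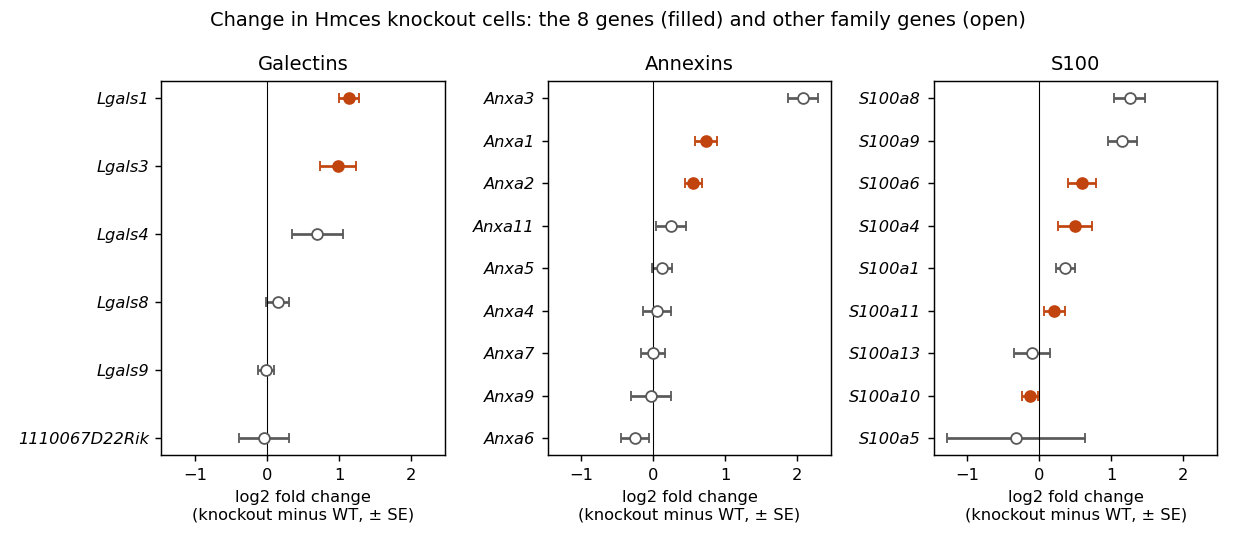
Difference in log2(FPKM + 1) of knockout minus WT libraries (x axis, error bars SE) of every tested galectin, annexin and S100 gene, sorted within each family (y axis). Filled points are the 8 genes of the set and open points their relatives; Anxa3 at 2.08 lies farthest to the right, and S100a10 at -0.12 is the 1 filled point left of 0.

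Genes whose products meet galectins outside the cell or make their sugar ligands did not follow Lgals1. Of 17 tested, 11 had a positive and 6 a negative difference with a median of 0.06, and limma called 0. At an unadjusted p under 0.05, 0 were higher and 2 lower, against 4.32% and 4.84% of all genes. Those 2 were Lamp1, a heavily glycosylated lysosomal membrane protein that binds galectin-3, at 107 ± 36.8 FPKM in knockout and 162 ± 9.74 FPKM in WT cells, and the integrin gene Itgb1, at 54.8 ± 6.37 FPKM in knockout and 71.6 ± 9.27 FPKM in WT cells (SD, n = 3 each; limma adjusted p = 0.506 and 0.532). Lamp1 was lowest in knockout replicate 2, at 67.2 FPKM, with 140.01 and 113 FPKM in the other knockout libraries. Lgals3bp, a secreted ligand of galectin-3, stood at 128 ± 17.9 FPKM in knockout and 111 ± 13.0 FPKM in WT cells. Mgat5, whose enzyme builds the branched sugars that galectin-3 prefers, stood at 6.01 ± 2.57 and 3.87 ± 1.56 FPKM in the same order, with overlap.

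Of 9 tested ligands, receptors and partners of annexins and S100 proteins, limma called 0. At an unadjusted p under 0.05, 3 were higher, against 4.32% of all genes. Fpr1, a formyl peptide receptor gene of neutrophils and a receptor for annexin A1, stood at 10.6 ± 4.52 FPKM in knockout and 4.19 ± 2.90 FPKM in WT cells (SD, n = 3 each; limma adjusted p = 0.495). Ahnak, whose giant protein binds the complex of annexin A2 and S100A10, stood at 2.27 ± 0.454 FPKM in knockout and 0.654 ± 0.182 FPKM in WT cells (adjusted p = 0.488). The third was Fpr2, another formyl peptide receptor gene, whose groups overlapped, at 12.2, 5.71 and 1.08 FPKM in knockout libraries, against 1.69, 0.973 and 0.449 FPKM in WT libraries (adjusted p = 0.539). Cacybp, which encodes the calcyclin-binding protein, stood at 161 ± 10.9 and 173 ± 6.44 FPKM in the same order. Plg and Plat, which encode plasminogen and its tissue activator, were listed at 0 in every library, while Plaur, the urokinase receptor gene, was read at 25.4, 23.7 and 23.0 FPKM in knockout libraries, against 25.6, 28.3 and 31.6 FPKM in WT libraries (limma adjusted p = 0.703).

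Granulocyte and monocyte markers were higher in the same knockout libraries. All 11 markers tested had a positive difference, 10 had groups that did not overlap, and Mpo and Ctsg, which encode granule enzymes, rose to 1159.6 ± 348 and 544 ± 78.8 FPKM in knockout cells, against 177 ± 71.2 and 56.0 ± 43.7 FPKM in WT cells (SD, n = 3 each; limma adjusted p = 0.0307 and 0.0494). Over all genes tested, 48.1% had a positive difference, 7.47% lay wholly above WT and 0.104% were called higher. The summed level of the 11 was 19115 to 25520 FPKM in knockout libraries, against 6917 to 10659 FPKM in WT libraries. S100a8 and S100a9 belong to this list too and make up most of that sum; without them the sum was 5329 to 7244 FPKM in knockout and 1926 to 2506 FPKM in WT libraries. None of the 11 was at 0 in any library. In bulk samples a larger (or smaller) share of cells of a type and more (or less) RNA per cell cannot be told apart, and the part of these markers in the levels of the 8 genes was not tested.

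Inside a genotype, the 8 genes and these markers did not all share 1 order of libraries. Among the markers, only S100a8 and S100a9 ordered the libraries as Lgals1 did in both genotypes. S100a8 was read at 12348, 7567 and 9643 FPKM in knockout replicates 1, 2 and 3. In WT replicates 1, 2 and 3 its level was 4103, 5155 and 3148 FPKM. Among WT libraries, replicate 2 held the highest level of 6 of the 8 genes (Lgals1, Lgals3, Anxa2, S100a6, S100a10 and S100a11) and the highest marker sum without S100 genes, 2506 FPKM, and replicate 3 held the lowest level of 5 of the 8 (Lgals1, Lgals3, Anxa2, S100a6 and S100a11) and the lowest sum, 1926 FPKM. The called markers Mpo and Ctsg, and Elane, ran the other way there, lowest in WT replicate 2 and highest in replicate 3. Mpo was read at 156, 119 and 257 FPKM and Ctsg at 36.6, 25.5 and 106 FPKM in WT replicates 1, 2 and 3. S100a8, S100a9, Camp and Ngp were instead highest in WT replicate 2 and lowest in replicate 3, as Lgals1 was. Prtn3, Ltf, Lyz2 and Ly6c2 followed neither pattern. Among knockout libraries, replicate 1 was highest for 6 of the 8 genes and had the highest marker sum with S100 genes (25520 FPKM). Without S100 genes the highest sum was that of knockout replicate 2 (7244 FPKM), which held the lowest level of 4 of the 8 genes (Lgals1, Anxa2, S100a10 and S100a11), and the lowest was that of replicate 3 (5329 FPKM), which held the highest Lgals3 level. With 3 libraries per genotype this is a description only.

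Of 9 macrophage markers tested, limma called 0 and 8 had overlapping groups. All 9 had a negative difference on the log2 scale, while 48.1% of all genes had a positive one. At an unadjusted p under 0.05, 2 (C1qc and Fcna) were lower, against 4.84% of all genes. The summed level of the 9 was 27.4, 95.0 and 12.9 FPKM in knockout libraries, against 38.7, 76.4 and 174 FPKM in WT libraries, with overlap. Cd68 and C1qb were the most abundant of the list. Cd68 was read at 21.2, 45.7 and 7.59 FPKM in knockout libraries, against 16.4, 15.95 and 34.3 FPKM in WT libraries. C1qb was read at 0, 17.7 and 2.87 FPKM in knockout libraries, against 6.83, 10.98 and 36.9 FPKM in WT libraries. Fcna was at 0 in 2 knockout libraries and in no WT library. The part of macrophage RNA in the level of Lgals3, a gene that macrophages express, was not tested.

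**Figure D4:**
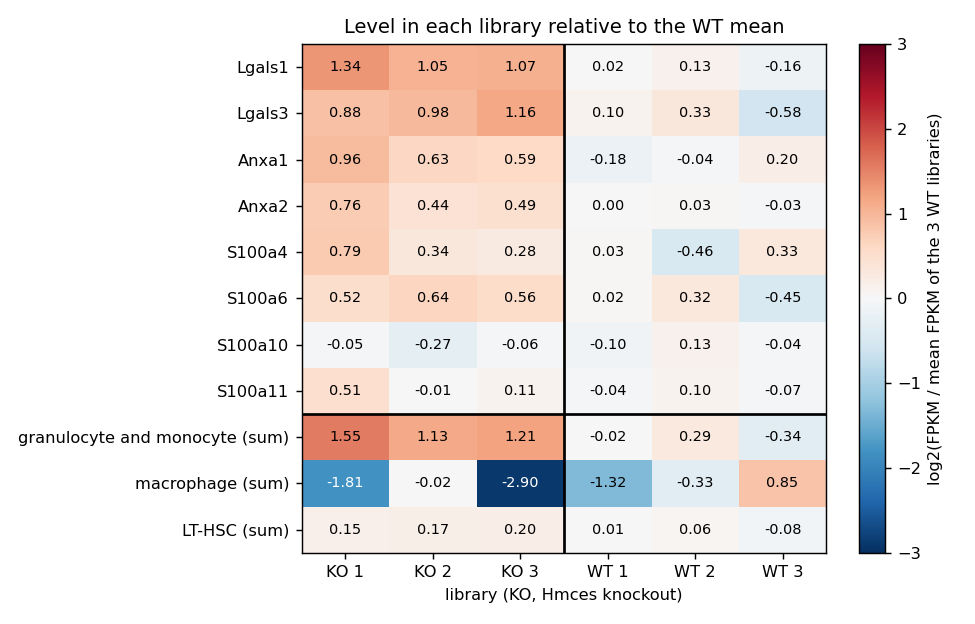
Level of each of the 8 genes and the summed level of 3 marker lists (rows) in each library (columns, knockout left of the line), as log2 of FPKM over the mean of the 3 WT libraries; red is above and blue below that mean. Lgals1 lies between 1.05 and 1.34 in the knockout libraries, the granulocyte and monocyte sum between 1.13 and 1.55, S100a10 between -0.27 and -0.05, and the macrophage sum between -2.90 and -0.02.

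Summed levels of markers of other lineages gave overlapping ranges. They were 371 to 463 FPKM in knockout and 302 to 429 FPKM in WT libraries for T and NK cell genes, nearly all from Nkg7, and 53.5 to 92.3 and 48.8 to 67.7 FPKM for B cell genes. Erythroid genes summed to 28.2 to 228 FPKM in knockout and 67.5 to 110.3 FPKM in WT libraries, and megakaryocyte genes, led by Pf4, to 353 to 714 and 656 to 1035 FPKM. Mast cell, basophil and eosinophil genes summed to 74.0 to 1009.8 FPKM in knockout and 32.7 to 79.4 FPKM in WT libraries, the top value being set by Prg2 in knockout replicate 1. Of the 5 genes of that list, 4 had a positive difference, with a median of 2.03. At an unadjusted p under 0.05, 3 (Fcer1a, Prg2 and Hdc) were higher, against 4.32% of all genes. Prg2, which encodes an eosinophil granule protein, was read at 956, 22.2 and 19.3 FPKM in knockout libraries, against 6.32, 5.15 and 11.3 FPKM in WT libraries. Hdc, the histamine-forming enzyme gene, was read at 12.0, 16.01 and 12.2 FPKM in knockout libraries, against 2.46, 7.12 and 0.290 FPKM in WT libraries. The groups did not overlap for either gene, and the part of such cells in the levels of the 8 genes was not tested. Stromal and endothelial genes summed to 22.3 to 37.6 and 21.8 to 31.0 FPKM. No gene of these lists was called by limma; at an unadjusted p under 0.05, T and NK cell genes had 1 higher and 1 lower of 4 tested, megakaryocyte genes 0 higher and 1 lower of 5, and B cell, erythroid and stromal genes 0. Of 12 LT-HSC genes tested, 5 had a positive and 7 a negative difference, limma called 0, and 2 were higher at an unadjusted p under 0.05. The LT-HSC list summed to 921 to 954 FPKM in knockout and 788 to 867 FPKM in WT libraries, and these ranges did not overlap. That gap lay mainly in Ly6a and in Esam, an adhesion molecule gene read at 114, 139 and 149 FPKM in knockout libraries, against 71.5, 64.5 and 62.1 FPKM in WT libraries (limma adjusted p = 0.0702).

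Across the 6 libraries, the 5 genes whose log2 levels followed Lgals1 most closely, among 6058 named genes with a mean of at least 10 FPKM, were Hp, Tmem135, Mgst2, Fbxl5 and Mgst1, with Pearson correlations from 0.990 to 0.998. Hp, the haptoglobin gene, was read at 144, 111 and 112 FPKM in knockout libraries, against 28.6, 36.4 and 25.1 FPKM in WT libraries, the same order of libraries as Lgals1. Mgst1 and Mgst2 encode microsomal glutathione transferases and stood at 53.2 ± 4.41 and 28.1 ± 4.71 FPKM in knockout cells, against 27.5 ± 1.91 and 4.76 ± 2.13 FPKM in WT cells. Of the other 7 genes of the set, Anxa2 came closest to Lgals1 with a correlation of 0.981 and rank 8, followed by Anxa1 (0.912), Lgals3 (0.911), S100a6 (0.858), S100a11 (0.672), S100a4 (0.640) and S100a10 (-0.41). These correlations share the genotype contrast and the libraries, so they order the genes and carry no test.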

How the data were processed

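RNA was measured in 3 Hmces knockout and 3 WT libraries of sorted LT-HSCs. Values are FPKM as deposited by the authors in 1 table. Build mm9, Cufflinks 2.2.1 and TopHat2 2.1.1 are named in the submitters' processing notes. No source used here gives the annotation, the alignment options or strand use. Genes with a mean of at least 1 FPKM over the 6 libraries (11532) were taken to log2(FPKM + 1), which understates the change of low genes, then tested with limma (version 3.58.1, R 4.3.3) (mean-variance trend, genotype as the only term, two-sided, Benjamini-Hochberg adjustment over all genes tested, threshold 0.05). The fit was tried on simulated data in which the planted changes were larger than those of the 8 genes. That trial does not show how well changes of their size are found. FPKM is scaled to each library's total, so every level is relative to the other transcripts. Nothing says that libraries came from separate mice, so the spread behind each p-value may be technical. The 8 genes, the 15 gene lists and the motifs were chosen with earlier results of these data known. Named are the 8 genes, called relatives, up to 2 relatives per list with the largest differences among those whose groups did not overlap, called and most abundant markers, and the 5 genes most like Lgals1; other genes named were chosen after their values were seen. Depth was inferred from the commonest FPKM step, allowing for transcript length, among nonzero values of 1427 low genes. In each library 398 to 511 of these genes had a nonzero value, and 50 to 79 values shared the commonest step. The estimate bears on counting error only. It rests on the assumed fragment length, and the fragments per gene rest also on the length of each gene's longest coding transcript. Promoters are from RefSeq (GRCm38.p6), matched by symbol. Tried besides were 16 alternative fits.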

Additional observations from a re-analysis of the deposited data

How the results depend on the processing

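Under all 16 alternative fits, 7 of the 8 genes kept a positive log2 difference, and the median over the 8 lay between 0.54 and 0.64. No log2 difference of the 8 genes changed sign. Their ranges over the alternatives were 1.05 to 1.21 for Lgals1, 0.74 to 1.16 for Lgals3, 0.62 to 0.83 for Anxa1, 0.46 to 0.62 for Anxa2, 0.39 to 0.77 for S100a6, 0.29 to 0.67 for S100a4, 0.05 to 0.31 for S100a11 and -0.18 to -0.05 for S100a10. Lgals1 was called under 6 of the 16, and the number of the 8 genes called was 0 with no filter on low values, with libraries scaled to the same median, with no variance trend and with the replicate block, and 0 (range 0 to 0) with 1 library left out. No alternative called any of the other 7. Across the table the number called was 1 with no filter, 32 without small RNA genes, 6 with no variance trend, 20 with robust estimation and 2 with the replicate block, and 2 to 19 with 1 library left out. Of the other galectins, annexins and S100 genes, limma called 0 with no filter or with the block, 2 with quantile normalization (S100a9 besides Anxa3), 3 without small RNA genes (S100a8 and S100a9 besides Anxa3), and 0 to 1 with 1 library left out. The cause of these changes was not tested. Deviations of same-numbered libraries from their group means correlated at 0.08, 0.01 and 0.04, against -0.08 to 0.05 between differently numbered libraries. Not every library was closest to its own number. With 3 libraries per genotype, such correlations cannot decide whether replicate numbers pair the libraries. Knockout replicate 2 was the library that stood apart on the leading principal component. Without it, the differences were 1.19 for Lgals1, 0.998 for Lgals3, 0.78 for Anxa1 and 0.62 for Anxa2. They were 0.56 for S100a4 and for S100a6, 0.31 for S100a11 and -0.05 for S100a10.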
